A study of Mus musculus with 24 samples.

Results

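Levels of the 2 mature arms of microRNA-122, mmu-miR-122-5p and mmu-miR-122-3p (miR-122-5p and miR-122-3p from here on), were measured in hepatocytes sorted by their position along the mouse liver lobule. The arms were taken by name from the 1881 mouse miRNAs on each array, and both were detected on all 24 arrays, so neither depended on a filter on low values. RefSeq (GRCm38.p6) places the gene Mir122 on chromosome 18, with Nedd4l and Alpk2 as the nearest protein-coding genes on either side, and its interval overlaps that of Mir122b, a miRNA without a row on the arrays. Hepatocytes came from 3 untreated male C57BL/6J mice aged 3 months, fed freely and kept on a reversed light cycle. Viable tetraploid cells without CD45 or CD31 were sorted by a pericentral surface protein, CD73, and a periportal one, E-cadherin, into 8 populations of 50000 cells, from zone 1 (most pericentral) to zone 8 (most periportal). Each array held the total RNA of 1 zone of 1 mouse, so every zone had 3 arrays. Only tetraploid cells were measured, the zone numbers give an order without distances, and a difference in signal cannot tell apart RNA per cell from the mixture of cells in a gate.

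A miRNA is cut from a hairpin precursor into a pair of strands, of which the guide is kept in the Argonaute complex and pairs through its seed, bases 2 to 8, with target mRNAs, while the passenger strand is mostly degraded. In miR-122 the 5p arm is the guide and the 3p arm the passenger. miR-122 is a liver-specific miRNA, driven by liver-enriched transcription factors such as HNF4A, and is known for keeping hepatocytes differentiated and for its part in cholesterol and lipid metabolism.

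The mature sequences shown are those of the miRNAs whose profiles over the 24 arrays were most like the miR-122 arms, with the seed in capitals, from RefSeq on GRCm38.p6. The first 5 are listed for likeness to miR-122-5p and the last 2 for likeness to miR-122-3p. miR-30b-5p, the first in likeness to miR-122-3p, is named only.
miR-30a-3p: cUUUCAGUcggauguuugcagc
miR-30a-5p: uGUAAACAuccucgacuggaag
miR-26a-5p: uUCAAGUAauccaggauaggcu
miR-99a-5p: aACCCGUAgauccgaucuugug
miR-345-5p: gCUGACCCcuaguccagugcuu
miR-26b-5p: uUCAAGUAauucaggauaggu
miR-30c-5p: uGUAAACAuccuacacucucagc
By seed these 7 fall into a miR-30 group (miR-30a-5p and miR-30c-5p), a miR-26 group (miR-26a-5p and miR-26b-5p), and miR-30a-3p, miR-99a-5p and miR-345-5p each with a seed of its own. None of them comes from the miR-122 precursor.

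The summed miRNA signal of an array ran from 57935 to 138301 intensity units and the number of miRNAs detected from 248 to 368. Each mouse had a slide of its own, so mouse and slide are 1 factor, and zones 1 to 4 lay in the first slide row and zones 5 to 8 in the second on every slide, so the pericentral and periportal zones and the slide rows cannot be told apart. Of 21 miRNAs listed for leukocytes, endothelium, stellate cells, biliary epithelium and erythroid cells, 19 were not detected on any array. The most that any of these lists held of an array's signal was 0.0154% in zones 1 to 4 and 0.0152% in zones 5 to 8, both for the endothelial list (lowest 0 in both, with 1 of its 2 miRNAs undetected on every array). The hepatocyte list, miR-122-5p with miR-192-5p, miR-194-5p and miR-148a-3p, held 8.20% to 17.2% in zones 1 to 4 and 13.5% to 24.7% in zones 5 to 8. Most of that was miR-122-5p itself, with 7.12% to 14.9% and 11.6% to 21.6%, so the list is not a marker independent of it.

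The guide strand, miR-122-5p, was brighter toward the periportal end in each mouse. Its deposited signal had a lowest value of 5010 units, a median of 11312 and a highest of 18428 over the 24 arrays. It was the third brightest miRNA on 23 arrays and the second brightest on the zone 8 array of mouse 1. That rank does not order amounts, since probes differ in signal per molecule. The error given in the files was 7.33% to 7.52% of the signal, below the differences between zones 1 and 8 in each mouse.

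To make arrays comparable, each signal was set against the 75th percentile of the 198 always-detected miRNAs on its array and brought back to intensity units with the mean percentile, giving the scaled signal. In mouse 1 the scaled signal of miR-122-5p in zones 1 to 8 was 10495, 10032, 8904, 10643, 13599.7, 15227, 14639 and 13819. In mouse 2 it was 6778, 10250.5, 11314, 8018, 12306, 12687, 12975 and 12869.6. In mouse 3 it was 9292, 9359, 10532, 10578, 10882, 12266.5, 14648 and 14521. Within each mouse all 4 arrays of zones 5 to 8 lay above all 4 of zones 1 to 4, while over the pooled mice the ranges overlapped (highest of zones 1 to 4 11314, in zone 3 of mouse 2; lowest of zones 5 to 8 10882, in zone 5 of mouse 3). In mouse 3 zone 4 (10578) and zone 5 (10882) lay closer together than the error of either array (7.41% and 7.43%). In the deposited signal the zones separated in 2 of 3 mice, since zone 5 of mouse 2 (9348 units) lay below its zones 2 and 3. Separation of the scaled signal in 3 of 3 mice was seen for 5.60% of the 339 miRNAs detected on at least 6 arrays, and the opposite one for 0.295%. The highest scaled signal was in zone 6 in mouse 1 and zone 7 in mice 2 and 3, while the deposited signal was highest in zone 8 in each mouse (14028, 14505 and 18428 units), so where the profile peaks depended on scaling. Zones 7 and 8 did not differ beyond their spread (-0.04 ± 0.17 log2 units for zone 8 minus zone 7, SE).

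**Figure D1:**
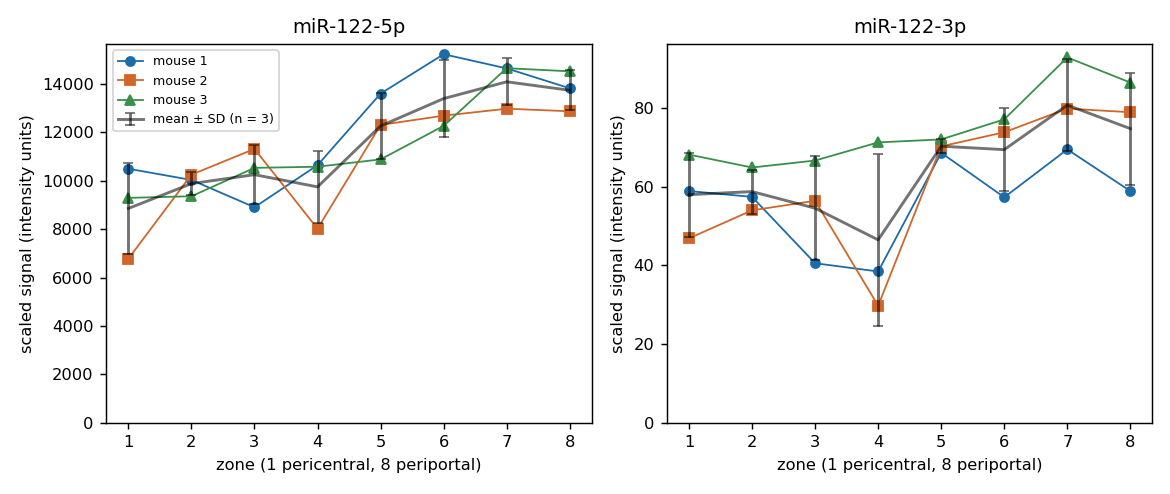
Scaled signal (intensity units) of miR-122-5p (left) and miR-122-3p (right) against zone, with 1 line per mouse and the mean ± SD of the 3 mice in grey. miR-122-5p lies higher in zones 5 to 8 of every mouse, and miR-122-3p falls to 38.4 and 29.7 in zone 4 of mice 1 and 2 but not of mouse 3 (71.2).

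In a limma fit over all 339 miRNAs the slope of log2 scaled signal on the zone number gave miR-122-5p a change of 0.72 ± 0.13 log2 units (SE) from zone 1 to zone 8, with a 95% interval of 0.46 to 0.98 and adjusted p = 0.000159. In that fit 35 miRNAs, 10.3% of those tested, rose and 22, 6.49%, fell. With mouse as a block the change was 0.72 ± 0.12 (SE, limma adjusted p = 6.36e-05), and 14.5% of miRNAs rose and 16.5% fell. The change of miR-122-5p ranked 33rd from the top among the 339. The changes were 0.68, 0.77 and 0.70 in mice 1, 2 and 3 in the scaled signal, and 0.69, 1.22 and 0.93 in the deposited signal, so the closeness of the mice depended on scaling. Zone 8 was 1.32-fold, 1.90-fold and 1.56-fold above zone 1 in mice 1, 2 and 3. The mean log2 difference was 0.66 ± 0.17 (limma, SE, adjusted p = 0.0285), in a comparison that called 4.72% of miRNAs higher and 0.59% lower. With mouse as a block its limma adjusted p was 0.0123, and 7.67% of miRNAs were called higher. In the fit without a block this difference between the ends no longer passed without any of the mice, with limma adjusted p = 0.0956, 0.0860 and 0.306 without mouse 1, 2 and 3.

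Zone means of miR-122-5p, as log2 scaled signal with SD over 3 mice, ran from lowest to highest as 13.09 ± 0.33 in zone 1, 13.24 ± 0.23 in zone 4, 13.27 ± 0.07 in zone 2, 13.32 ± 0.18 in zone 3, 13.58 ± 0.16 in zone 5, 13.70 ± 0.17 in zone 6, 13.74 ± 0.09 in zone 8 and 13.78 ± 0.10 in zone 7. No pair of adjoining zones differed past the threshold (limma; none at an unadjusted p under 0.05 without the block). The widest gap was between zones 4 and 5, with 0.34 ± 0.17 (SE, limma adjusted p = 0.719), and the other 6 lay between -0.08 and 0.18. For zone 5 against zone 4 the 95% interval of -0.02 to 0.70 leaves room for a difference as large as that between the ends. A moderated F test for any difference over the 8 zones gave adjusted p = 0.0526 against 5.31% of miRNAs called, and with mouse as a block adjusted p = 0.0240 against 9.14%.

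The slope depended on how arrays were made comparable and on the slide row. It was 0.95 log2 units without scaling, 0.89 scaled to the summed signal and 0.93 scaled to the 5 control sequences detected on all arrays, and miR-122-5p passed in each (limma adjusted p from 0.000747 to 0.00286). Scaled to the summed signal without the 4 brightest other miRNAs it was 0.31 (limma adjusted p = 0.00101), on a denominator that holds miR-122-5p itself, and with quantile normalization, which left it at 1 value on 23 of 24 arrays, it was 0.21 and did not pass (adjusted p = 0.401). With slide row and mouse as terms the change was 0.38 ± 0.23 (SE) and did not pass (limma adjusted p = 0.570), a fit in which 0 of the 339 miRNAs passed in limma and 37 did at an unadjusted p under 0.05. With 1 slope per mouse as the unit the adjusted p was 0.0744. Without the zone 1 and zone 4 arrays of mouse 2, on which miR-122-5p was dimmest, the change was 0.61 (limma adjusted p = 6.60e-05).

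**Figure D2:**
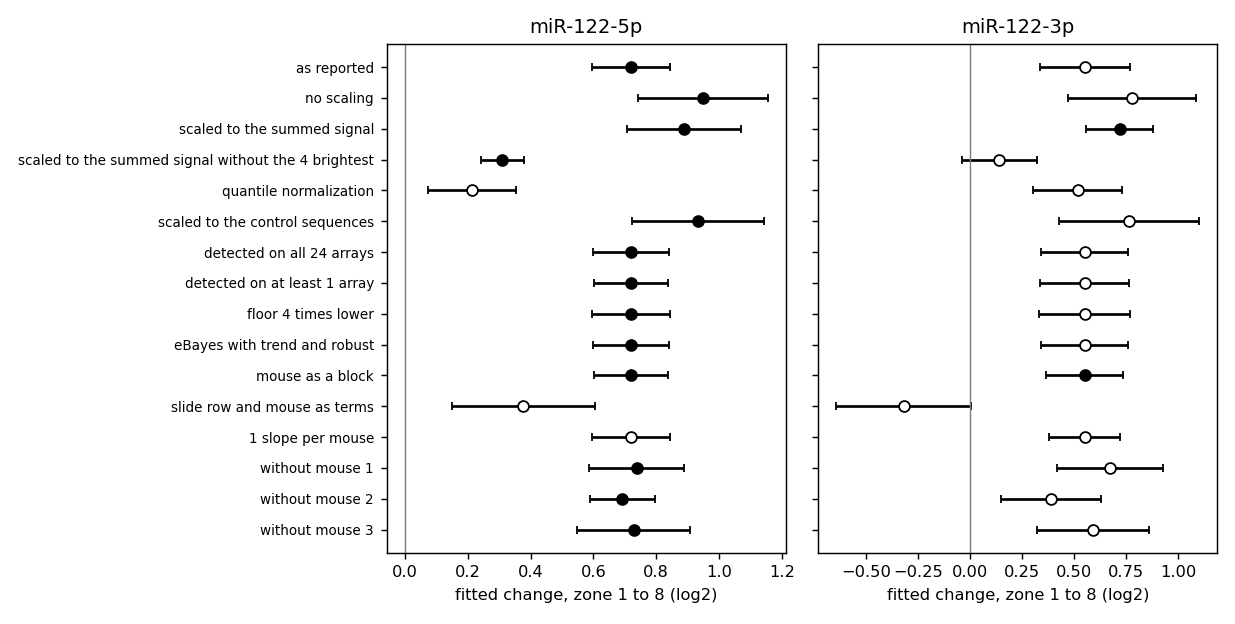
Fitted change in log2 signal from zone 1 to zone 8 (point) with its SE (bar) for miR-122-5p (left) and miR-122-3p (right) under each processing setting; filled points have a limma adjusted p below 0.05. miR-122-5p lies at 0.72 as reported and is lowest with quantile normalization (0.21), where 1 array sets the value, and miR-122-3p falls below 0 (-0.32) with slide row and mouse as terms.

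The share of an array's summed miRNA signal held by miR-122-5p was also larger toward the periportal end. In mouse 1 the share in zones 1 to 8 was 10.99%, 11.1%, 12.3%, 14.9%, 16.2%, 20.4%, 20.7% and 21.6%. In mouse 2 it was 7.12%, 10.96%, 11.5%, 9.69%, 11.6%, 14.4%, 13.2% and 13.9%. In mouse 3 it was 8.52%, 8.75%, 9.60%, 9.72%, 12.6%, 13.4%, 12.7% and 13.3%. Mouse 1 rose at each of the 7 steps and nearly doubled its share (1.97-fold), with 1.95-fold in mouse 2 and 1.56-fold in mouse 3. The denominator moved too: the summed signal of mouse 1 was 94526 units in zone 1 and 64818 in zone 8, where its miR-122-5p signal was 1.35-fold higher, while in mice 2 and 3 the summed signal was higher in zone 8 than in zone 1. The fitted change over the axis was 7.91 percentage points (two-sided permutation test within mice, 100000 resamples, p = 1e-05, the smallest they can give). The share was higher in zone 8 than in zone 1 in 3 of 3 mice. This test permuted zones across the slide rows, so it cannot tell zone from row.

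Most of the denominator was held by 4 other miRNAs. miR-6366 held 32.8% ± 3.96, miR-3963 26.6% ± 2.96, miR-5100 4.57% ± 0.460 and miR-3968 4.25% ± 0.858 of the summed signal (SD, n = 24), and none of the 4 passed the slope test (limma adjusted p from 0.0638 to 0.365). Their fitted changes lay between -0.56 and -0.33 log2 units, and with mouse as a block miR-6366, miR-3963 and miR-3968 fell (limma adjusted p from 0.0069 to 0.0354). With these 4 left out of the denominator miR-122-5p held 33.2% to 45.7% of the rest on every array. Its lowest share was then in zone 1 in each mouse, and zone 8 was 1.15-fold, 1.26-fold and 1.26-fold above zone 1 in mice 1, 2 and 3. The change over the axis on that denominator was 8.48 percentage points (permutation p = 1e-05).

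**Figure D3:**
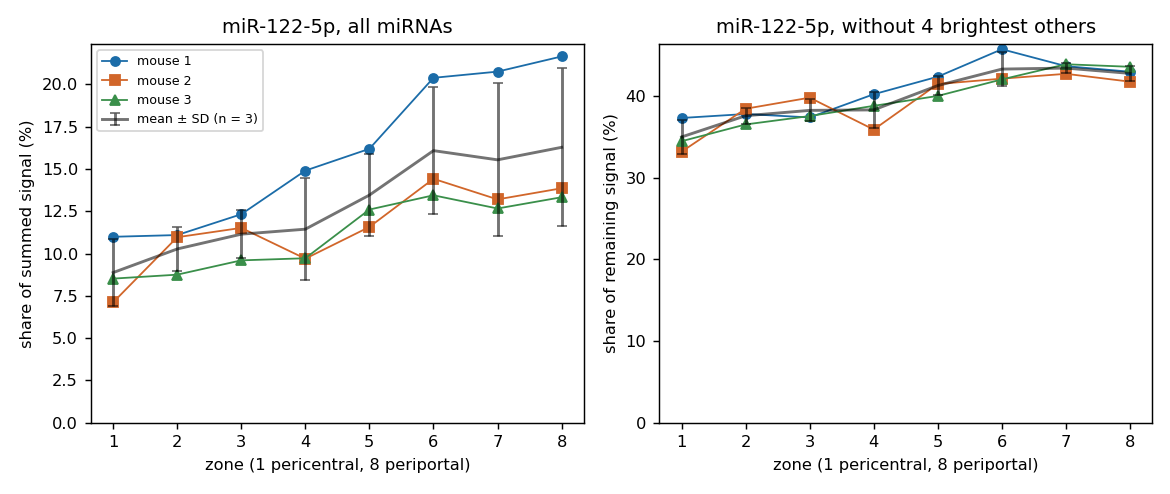
Share (%) of the signal held by miR-122-5p against zone, of all miRNAs (left) and of all but the 4 brightest others (right), with 1 line per mouse and the mean ± SD of the 3 mice in grey. Mouse 1 parts from the others on the left (21.6% in zone 8 against 13.9% and 13.3%), while on the right the 3 mice lie at 43.0%, 41.8% and 43.6%.

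The passenger strand, miR-122-3p, was far dimmer, with a lowest deposited signal of 23.9, a median of 59.0 and a highest of 110 units, at ranks 43 to 86 of an array's miRNAs. In mouse 1 its scaled signal in zones 1 to 8 was 58.9, 57.4, 40.5, 38.4, 68.6, 57.3, 69.4 and 58.9. In mouse 2 it was 46.9, 54.0, 56.4, 29.7, 70.2, 73.8, 79.8 and 78.9. In mouse 3 it was 68.1, 64.8, 66.6, 71.2, 72.0, 77.1, 92.8 and 86.4. Zones 5 to 8 lay wholly above zones 1 to 4 in mice 2 and 3 and not in mouse 1, where zone 6 (57.3) lay below zones 1 and 2. In mouse 3 zone 4 (71.2) and zone 5 (72.0) lay closer together than the error of either array (8.45% and 8.38%). The count of mice with separated zones depended on scaling. It was 1 of 3 mice in the deposited signal, scaled to the control sequences, or scaled to the summed signal without the 4 brightest. Scaled to the summed signal it was 3 of 3. The share of all miRNAs that separate in 2 of 3 mice was not computed. Zones 3 and 4 of mouse 1 and zone 4 of mouse 2 were the dimmest arrays, at under 41 units.

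For miR-122-3p the slope gave 0.55 ± 0.22 log2 units over the axis (SE, 95% interval 0.10 to 1.00) and did not pass over the 339 miRNAs (limma adjusted p = 0.0781), with changes of 0.31, 0.87 and 0.47 in mice 1, 2 and 3. With mouse as a block it rose (0.55 ± 0.19, limma adjusted p = 0.0286), a fit in which 14.5% of miRNAs rose and 16.5% fell. It also passed without zone 4 (0.50 ± 0.15, adjusted p = 0.0229) and scaled to the summed signal (0.72 ± 0.16, adjusted p = 0.00212). With slide row and mouse as terms the fitted change was -0.32 (adjusted p = 0.713). Zone 8 exceeded zone 1 by 0.36 ± 0.27 log2 units (SE, limma adjusted p = 0.516).

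In order of level the zone means of miR-122-3p (log2 scaled signal, SD over 3 mice) were 5.44 ± 0.65 in zone 4, 5.74 ± 0.36 in zone 3, 5.84 ± 0.27 in zone 1, 5.87 ± 0.14 in zone 2, 6.10 ± 0.23 in zone 6, 6.13 ± 0.04 in zone 5, 6.20 ± 0.29 in zone 8 and 6.32 ± 0.21 in zone 7. No adjoining zones differed past the threshold here either. Zone 5 exceeded zone 4 by 0.70 ± 0.27 (SE, limma adjusted p = 0.369, unadjusted p = 0.0174, the only step under 0.05), with differences of 0.84, 1.24 and 0.02 in mice 1, 2 and 3. The gap was thus present in mice 1 and 2 and near 0 in mouse 3. With mouse as a block the limma adjusted p of this gap was 0.106 (unadjusted p = 0.00312). For both arms zones 1 to 4 formed the lower and zones 5 to 8 the upper part of the order, which is also the split of the slide rows. Their means were 13.23 ± 0.21 and 13.70 ± 0.14 for miR-122-5p and 5.72 ± 0.39 and 6.19 ± 0.20 for miR-122-3p (log2 scaled signal, SD, n = 12 arrays each). These 12 arrays are 4 zones of each of 3 mice, so the SD mixes zones and mice.

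The ratio of the arms within an array is free of scaling, and its change along the axis can be read although its level cannot, since the probes differ. In mouse 1 the signal of miR-122-5p over that of miR-122-3p in zones 1 to 8 was 178, 175, 220, 277, 198, 266, 211 and 235. In mouse 2 it was 144.7, 190, 201, 270, 175, 172, 163 and 163. In mouse 3 it was 136, 144.3, 158, 149, 151, 159, 158 and 168. The ratio was highest in zone 4 of mice 1 and 2, on arrays where the passenger strand was dim, and varied least in mouse 3.

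**Figure D4:**
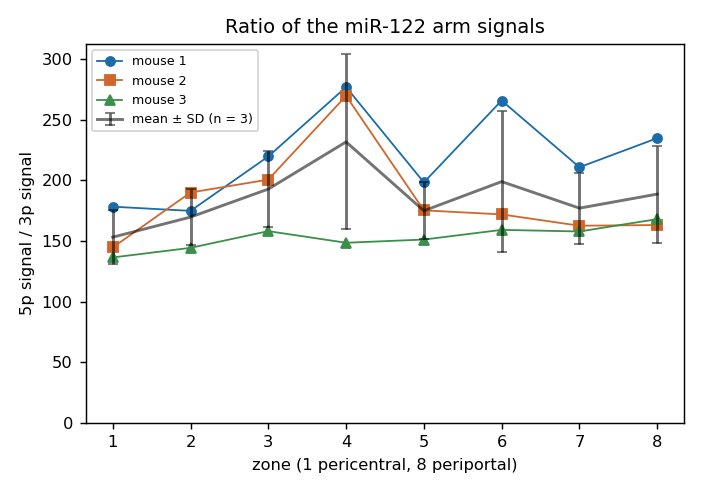
Signal of miR-122-5p divided by that of miR-122-3p on the same array against zone, with 1 line per mouse and the mean ± SD of the 3 mice in grey. Zone 4 stands at 277 and 270 in mice 1 and 2 and at 149 in mouse 3.

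The log2 difference of the arms changed by 0.17 ± 0.19 from zone 1 to zone 8 (SE, 95% interval -0.23 to 0.57), which did not pass (limma over 31 precursors, adjusted p = 0.604; permutation within mice, p = 0.225). The arms of miR-122 were thus not distinguished in slope, though the interval allows a change of up to 0.57 log2 units. The changes were 0.37, -0.10 and 0.23 in mice 1, 2 and 3, and without mouse 2 the change was 0.30 (permutation p = 0.0228; limma adjusted p = 0.371, and between 0.148 and 0.995 over its 17 alternatives). Without zone 1 it was -0.01, and with slide row and mouse as terms 0.70 ± 0.26 (SE, limma adjusted p = 0.148). Of the 31 precursors with both arms detected on at least 6 arrays, 5 (16.1%) passed, and with mouse as a block 7 (22.6%).

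The most positive changes of arm difference were those of miR-125a (5.09 ± 0.75), miR-31 (2.91 ± 0.40) and miR-455 (1.03 ± 0.34), and the most negative those of miR-195a (-1.95 ± 0.56), miR-7221 (-0.92 ± 0.76) and miR-6934 (-0.70 ± 0.66; log2 units, SE). In these 6 an arm was undetected on some arrays and stood at the floor there, so the sizes are not measured on both sides. miR-21a, with both arms on all arrays, also passed at 1.02 ± 0.34. Over the 11 precursors with both arms detected on all 24 arrays, 0 passed in limma (3 at an unadjusted p under 0.05). The call of miR-21a thus depended on which precursors were tested beside it. Among the 11, miR-122 had rank 4 in the correlation of its arms (Pearson r = 0.79 after centring on each mouse, n = 24 arrays that share scaling and slide; median of the 11, 0.58). miR-30a (0.95), miR-192 (0.92) and miR-378a (0.83) stood above it.

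**Figure D5:**
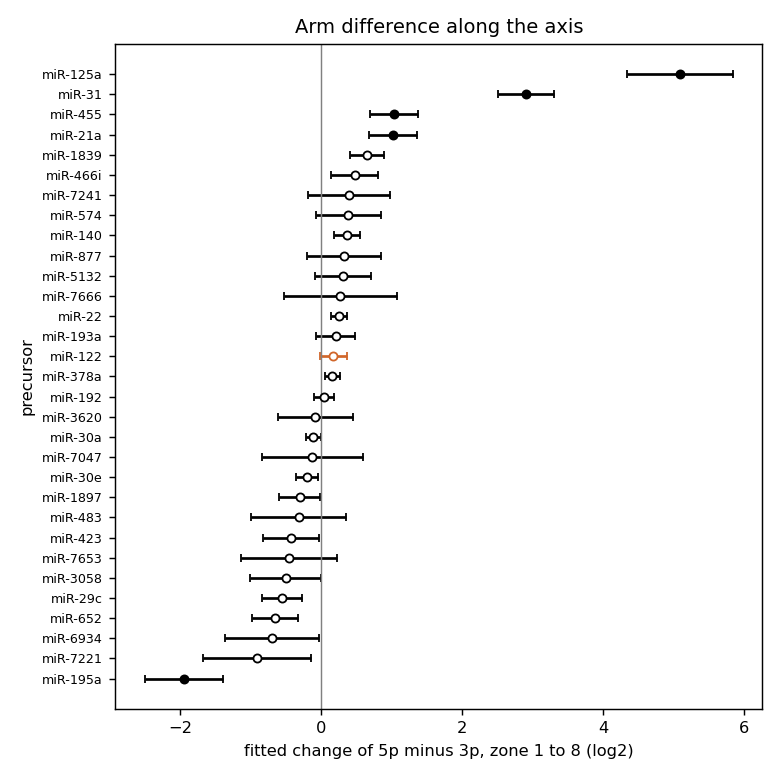
Fitted change from zone 1 to zone 8 of the log2 difference of 5p minus 3p signal (point) with its SE (bar) for 31 precursors; filled points have a limma adjusted p below 0.05 and miR-122 is drawn in orange. miR-122 lies near the middle of the order at 0.17, and miR-125a (5.09) and miR-195a (-1.95) stand at the ends.

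The miRNAs most like miR-122-5p were named by the Pearson correlation of log2 scaled signal, centred on each mouse, over 24 arrays among 197 other miRNAs detected on all of them. They were both arms of miR-30a, miR-30a-3p (0.97) and miR-30a-5p (0.96), then miR-26a-5p (0.96), miR-99a-5p (0.96) and miR-345-5p (0.95). Their fitted changes over the axis were 0.94 ± 0.14, 0.83 ± 0.11, 0.62 ± 0.13, 1.59 ± 0.19 and 0.80 ± 0.14 log2 units (SE), given as a description, since they were chosen for likeness to a rising profile on the same arrays. The passenger strand miR-122-3p ranked 29th in likeness to its own guide (0.79). At the other end were miR-8110 (-0.87), miR-5126 (-0.83) and miR-709 (-0.83). Their likeness depended on scaling and lay between -0.92 and -0.03 under 4 other scalings, while the 5 nearest lay between 0.73 and 0.99.

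miR-122-3p was most like miR-30b-5p (0.96), miR-26b-5p (0.95) and miR-30c-5p (0.94), none of them among the 5 nearest to its guide. Their likeness to miR-122-5p was also high, at 0.87, 0.77 and 0.88, so the neighbours of the arms overlap. From zone 4 to zone 5 miR-30b-5p, miR-26b-5p and miR-30c-5p differed by 0.73, 0.46 and 0.72 log2 units in mouse 1, by 0.83, 1.20 and 0.82 in mouse 2 and by 0.07, -0.04 and 0.13 in mouse 3, which describes the likeness they were chosen for. Base composition moved with likeness: among the 166 of 197 miRNAs with a sequence, GC content correlated with likeness to miR-122-5p at r = -0.62 and to miR-122-3p at r = -0.65, across miRNAs, which share arrays and are not independent. The median GC content was 44.5% in the 20 most like miR-122-5p and 67.4% in the 20 least like it. The part of base composition in these likenesses was not tested.

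Beside miR-122, 16 miRNAs known to be abundant in hepatocytes were read as a list that includes both arms. All 16 passed the filter on low values, with 7 rising, 0 falling and 9 not past the threshold, against 10.3% and 6.49% of all miRNAs, and a median change of 0.38 log2 units against -0.10 for the 339 (limma). All 16 were detected on all 24 arrays, and of the 198 such miRNAs 9.60% rose and 9.60% fell, with a median of -0.19. With the mouse term included the count of the list was 10 and 0, against 14.5% and 16.5% of all miRNAs, and scaled to the summed signal 11 and 0, against 12.7% and 1.77%. miR-21a-5p, a miRNA known from proliferation and injury, rose by 1.17 ± 0.24 (SE), miR-30a-5p by 0.83 ± 0.11 and miR-148a-3p, which targets the LDL receptor, by 0.68 ± 0.16. The clustered liver miRNAs miR-192-5p and miR-194-5p had changes of 0.38 ± 0.16 and 0.31 ± 0.14 and did not pass, and miR-22-3p had -0.13 ± 0.10. Scaled to the summed signal without the 4 brightest, a denominator of which miR-122-5p itself held over 33%, 5 of the list rose and 3 fell with a median of -0.03, where 7.37% of all miRNAs rose and 34.2% fell with a median of -0.43.

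Of 17 miRNAs known from cholesterol and lipid metabolism 11 were detected, 9 of them on all 24 arrays. Of these 9, chosen by no filter that a zone could pass alone, 5 rose and 1 fell, against 9.60% rising and 9.60% falling of the 198 miRNAs detected on all arrays, and their median change was 0.51 log2 units against -0.19 (limma, over the 339). Those that rose were miR-122-5p, miR-21a-5p, miR-148a-3p, miR-26a-5p and miR-30c-5p, and miR-185-5p, which is known to act on genes of sterol regulation, fell by 0.64 ± 0.14 (SE). All of these risers but miR-30c-5p are also on the hepatocyte list, so the lists are not separate findings. Both lists hold miR-122-5p itself and were chosen with earlier results of these data known, so their counts are a description. miR-802-5p was detected on 12 of 24 arrays, passed the filter through the zones where it is high and is not counted here. miR-33-5p, encoded in the SREBP-2 gene, was detected on 12 arrays with a change of 0.67 ± 0.33 and did not pass, and miR-27b-3p had -0.17 ± 0.16. With mouse as a block miR-33-5p passed (0.67 ± 0.21, limma adjusted p = 0.0186). The arrays that lack it stood at the floor, so the size is not measured and it is not counted as a rise. With slide row and mouse as terms no member of either list passed.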

How the data were processed

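Cy3-labelled total RNA from the 24 populations was read on Agilent miRNA arrays of 1 colour, as the labels' protocols state. What the authors deposited are intensity values on a linear scale, 1 per miRNA and array. Agilent Feature Extraction made them, according to the submitters' processing notes; its version is not given in the sources used here. A detection call (1 or 0) is another deposited column per the file headers, and undetected miRNAs hold 0.1. The sources used here name no between-array scaling by the authors.

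The 21 control sequences were left out. Scaled signals below 1.12, the typical lowest detected value of an array, were set to 1.12 before log2. Tests covered 339 miRNAs, those called detected 6 times or more, and used limma 3.58.1 (lmFit, eBayes) in R 4.3.3, without a block, with Benjamini-Hochberg adjustment at 0.05. Single values were tested by permuting zones within mice. The mouse numbers pair arrays because 8 populations came from each animal. Fits without a block leave this pairing out, and those with mouse as a block use it. Arrays of a mouse deviated together from the zone means (median correlation 0.610, lowest 0.254). On simulated data with a change of 0.7 log2 units the slope fit of 339 miRNAs recovered 40.0% of those changed, and 59.8% with the mouse block. The number of arrays limits precision. Members and lists were chosen with earlier results of these data known. Named miRNAs were the arms, the 5 most and 3 least like miR-122-5p, the 3 most like miR-122-3p, the 4 brightest others, fixed list members and the 3 arm differences at each end; other list members were named after their values were seen. Alternatives were other scalings, filters, floors and variance models, mouse block, slide row, and leaving out mice or zones.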

Additional observations from a re-analysis of the deposited data

How the results depend on the processing

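Alternatives chosen after seeing the data were leaving out the mouse 2 arrays of zones 1 and 4, and the mouse block together with no scaling or with control sequences. The fitted change of miR-122-5p was above 0 in all 25 alternatives other than quantile normalization (0.31 to 0.95 log2 units). Quantile normalization gave it 1 fixed value on 23 of 24 arrays by its construction, so its 0.21 rests on 1 array and its sign is not counted. The change no longer passed with that setting, with slide row beside the replicate block (0.38) or with 1 slope per mouse (0.72). That of miR-122-3p was above 0 in 25 of 26 and passed scaled to the summed signal (0.72), with the replicate block (0.55), without zone 4 (0.50), and with the block and no scaling (0.78) or control scaling (0.76). Leaving out a mouse gave 0.69 to 0.74 and 0.39 to 0.67. Zone 8 against zone 1 for miR-122-5p was no longer called scaled to the summed signal (0.86), without the 4 brightest (0.29), with quantile normalization (0.37), control scaling (0.82), zones 1 and 8 alone (0.66), without the mouse 2 arrays (0.47), or without any mouse (0.52 to 0.78). The F statistic of miR-122-5p (main 4.84) passed over miRNAs detected on all arrays (5.22) or at least 1 (5.66), with trend and robust (5.28), with the replicate block (5.74) and without the mouse 2 arrays (5.22); without a mouse it was 2.71 to 6.93. The block changed no other call of the arms.

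Counts of falling miRNAs (main 22) were 3 without scaling or with control scaling, 6 with the summed signal, 116 without the 4 brightest, 56 with the block, 10 and 6 with the block and control or no scaling, 14, 12, 10 and 13 without zones 3, 6, 7 and 8, 36 without the mouse 2 arrays, and 9 to 25 without a mouse; rising counts (main 35) were 24 to 30 without a mouse. With slide row 0 rose and 0 fell in limma (19 and 18 at an unadjusted p under 0.05), and with 1 slope per mouse 12 and 0. The median change of all miRNAs moved from -0.10 to 0.10, 0.04, -0.43 and 0.09 with no, summed, 4-brightest-removed and control scaling. Precursors with a changed arm difference (main 5) were 0 with both arms on all arrays or slide row, 2 with a lower floor or without zone 2, 6 or 8, 3 without zone 1, 3 or 7, with 1 slope per mouse or without the mouse 2 arrays, and 2 to 6 without a mouse. The arm difference ran from 0.067 to 0.303 without a mouse, and without mouse 2 it passed the permutation test (p = 0.0228). The share kept its call in all 14 alternatives (5.69 to 9.05 percentage points), all of them leave-outs or other denominators. Slide row and 1 slope per mouse, with which the slope of miR-122-5p no longer passed, were not run for the share. Causes were not tested, and the slide row could not be fitted beside 8 zones as groups.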
